A study of Mus musculus with 10 samples.

Results

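The 6 glypican genes, Gpc1 to Gpc6, and the 4 syndecan genes, Sdc1 to Sdc4, were followed in the outer sulcus and spiral ligament of the mouse cochlea. All 10 were found by symbol among the 18725 genes of the deposited table and all 10 were tested. The genes were chosen by symbol with their read counts in hypothyroid and euthyroid libraries already in view, so their own differences between the groups are given below as a description with no p. The tissue was the strip of epithelium lateral to the cochlear duct's sensory cells, dissected with the ligament beneath it from C57BL/6J mice at postnatal day 10, in 5 hypothyroid and 5 euthyroid libraries. In the hypothyroid group the mothers drank water with 0.05% methimazole and 1.0% sodium perchlorate monohydrate, sweetened with 5.0% sucrose. Dosing ran from embryonic day 17 through lactation to the day of dissection. In the euthyroid group the mothers drank vehicle. The young therefore met the agents through the mother, and effects of the agents themselves and of the litter cannot be told apart from those of lost hormone in these libraries. How many animals made up a library was not stated, so the spread between libraries may be partly technical.

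Glypicans and syndecans are the main heparan sulfate proteoglycans of the cell surface. A glypican is held to the outer leaflet of the membrane by a glycosylphosphatidylinositol (GPI) anchor, whereas a syndecan crosses the membrane and has a short cytoplasmic tail that binds scaffold proteins. The sulfated sugar chains of both bind growth factors such as fibroblast growth factors, Wnt and Hedgehog proteins and pleiotrophin, and so set how far these proteins spread and how well they reach their receptors. Enzymes of the Golgi build and sulfate the chains, and enzymes outside the cell trim the chains or release the core proteins.

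Library totals lay between 19298145 and 19407592 estimated counts in hypothyroid libraries and between 19781921 and 20063961 in euthyroid libraries. Of 14862 genes tested, 10667 differed at an adjusted p under 0.05 in edgeR's quasi-likelihood test, 5603 of them higher and 5064 lower in hypothyroid tissue. The 20 most abundant genes took 8.86 to 9.54% of the counts in hypothyroid libraries and 13.98 to 15.26% in euthyroid libraries, and the scaling of the libraries changed the calls. With trimmed mean of M-values (TMM) factors the median tested gene had a log2 fold change of 0.04, and with library sizes alone it had 0.30, with 8650 genes higher and 2928 lower. The thyroid hormone response genes Hr and Klf9 served as a check of the labels. Hr averaged 5.58 CPM (counts scaled to a common library total) in hypothyroid and 111 CPM in euthyroid libraries, and Klf9 averaged 23.6 CPM in hypothyroid and 279 CPM in euthyroid libraries. The inner-ear genes of the ligament and root cells were present in both groups, although the extraction text in the labels names a joint cartilage of older animals. Of the 7 ligament markers 5 were lower in hypothyroid tissue. Slc4a10 averaged 3.41 CPM in hypothyroid and 413 CPM in euthyroid tissue, whereas Pou3f4 averaged 734 and 655 CPM. Chondrocyte markers summed to 18070 to 19720 CPM in hypothyroid and 45110 to 51720 CPM in euthyroid libraries.

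Upstream sequences of the 5 genes with the widest differences are shown first, since these are the genes the values below turn on. RefSeq promoter entries on build GRCm38.p6 were matched for 7 of the 10 genes, and Gpc1, Gpc6 and Sdc2 had no entry. The 250 bases before the annotated start are printed for Gpc3, Gpc2, Gpc4, Sdc1 and Sdc4, with capitals marking the GC box GGGCGG and the nuclear receptor half-site AGGTCA on either strand, so that CCGCCC and TGACCT are marked as well. The Gpc3 stretch is chrX:52613975-52614224 on the minus strand, and the Gpc4 stretch is chrX:52164924-52165173 on the minus strand. The Gpc2 stretch is chr5:138279938-138280187 on the minus strand. The Sdc1 stretch is chr12:8771146-8771395 on the plus strand, and the Sdc4 stretch is chr2:164443189-164443438 on the minus strand.
Gpc3: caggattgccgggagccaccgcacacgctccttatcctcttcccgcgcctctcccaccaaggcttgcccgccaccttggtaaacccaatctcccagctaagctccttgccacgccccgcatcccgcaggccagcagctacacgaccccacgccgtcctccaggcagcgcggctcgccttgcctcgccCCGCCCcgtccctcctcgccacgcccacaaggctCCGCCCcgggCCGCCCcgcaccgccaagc
Gpc2: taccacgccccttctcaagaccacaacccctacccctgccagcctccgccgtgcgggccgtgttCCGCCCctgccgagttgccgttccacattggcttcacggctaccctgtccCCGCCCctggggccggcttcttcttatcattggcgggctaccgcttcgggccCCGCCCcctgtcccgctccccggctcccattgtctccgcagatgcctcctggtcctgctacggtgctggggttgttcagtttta
Gpc4: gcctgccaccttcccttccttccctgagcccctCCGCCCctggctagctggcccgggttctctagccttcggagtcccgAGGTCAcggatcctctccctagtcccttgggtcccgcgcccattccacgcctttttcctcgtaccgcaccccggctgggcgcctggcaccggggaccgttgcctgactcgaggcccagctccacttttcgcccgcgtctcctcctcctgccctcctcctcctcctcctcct
Sdc1: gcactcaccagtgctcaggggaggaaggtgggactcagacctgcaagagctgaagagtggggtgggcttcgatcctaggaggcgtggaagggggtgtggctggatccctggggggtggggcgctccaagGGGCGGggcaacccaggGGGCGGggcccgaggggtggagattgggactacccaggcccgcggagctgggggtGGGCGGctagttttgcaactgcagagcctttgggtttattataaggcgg
Sdc4: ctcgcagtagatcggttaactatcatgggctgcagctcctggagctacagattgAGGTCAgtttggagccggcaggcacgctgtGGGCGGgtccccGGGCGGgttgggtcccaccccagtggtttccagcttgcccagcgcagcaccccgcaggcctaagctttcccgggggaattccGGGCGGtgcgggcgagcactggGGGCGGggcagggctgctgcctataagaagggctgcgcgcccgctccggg

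No marked match overlapped another in these 5 stretches. In the full windows of 250 bases before and 50 after the start, all 7 promoters held at least 1 GC box, against 59.3% of the promoters of tested genes and 35.7% of all 32851 promoters in the table. The half-site occurred in the promoters of Gpc4, higher in hypothyroid tissue, and of Sdc4, lower in hypothyroid tissue, against 12.6% of the promoters of tested genes. A direct repeat of the half-site with a spacing of 4 bases, the arrangement known for thyroid hormone receptor binding, was in none of the 7 windows and in 0.00664% of the promoters of tested genes. TATAAA, matched on either strand, was found in the Gpc5 window alone among the 7, against 7.53% of the promoters of tested genes. The match in Gpc5 was TTTATA, the reverse complement. The share of G and C was 70.7% for Gpc3, 65.7% for Gpc2, 66.7% for Gpc4, 66.3% for Sdc1 and 67.7% for Sdc4, against a median of 60.3% for tested genes. These matches describe letters in the windows and no binding was measured.

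Among the glypicans, the most abundant member did not differ beyond the spread of its libraries and the 5 others were all higher in hypothyroid tissue. Among the syndecans, Sdc1 was higher, Sdc4 and Sdc2 were lower, and Sdc3 overlapped between the groups. In all, 6 of the 10 genes passed the threshold as higher, where 37.7% of all tested genes did, and 2 passed as lower, where 34.1% did. The ranges of the groups were apart for 8 of the 10, against 57.9% of all tested genes. The median log2 fold change was 1.02 over the 6 glypicans and -0.07 over the 4 syndecans. As bulk tissue was sequenced, fewer cells of a type and less RNA per cell cannot be told apart for any of these values.

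**Figure D1:**
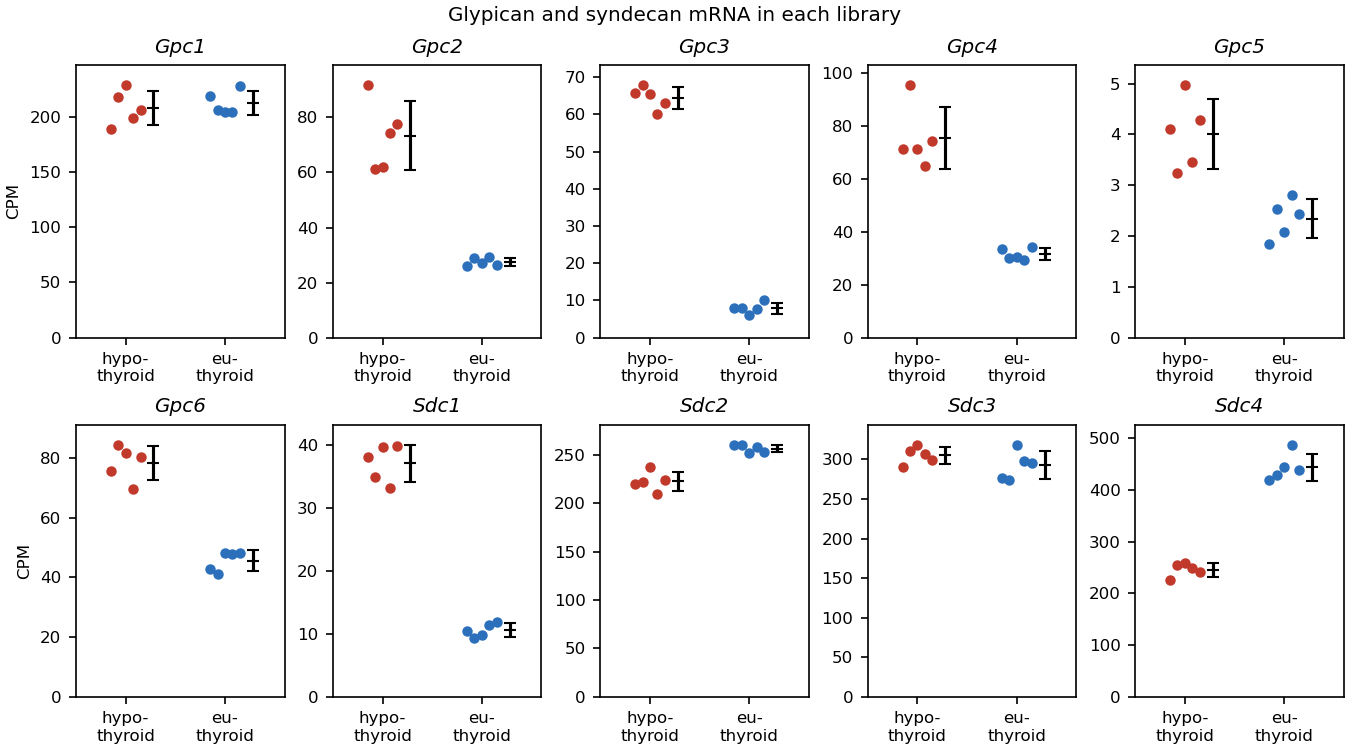
CPM scaled with TMM factors for each of the 10 genes, 1 point per library with hypothyroid libraries in red on the left and euthyroid libraries in blue on the right, and bars for mean ± SD (n = 5 each); every vertical axis starts at 0. The groups are apart for Gpc2 to Gpc6, Sdc1, Sdc2 and Sdc4, and overlap for Gpc1 and Sdc3.

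Gpc3 had the largest difference of the 10. Its product binds Hedgehog proteins in competition with their receptor Patched and restrains body growth, and loss of the human gene causes the Simpson-Golabi-Behmel overgrowth syndrome. The gene lies at chrX:52272426-52613974 on the minus strand. Replicates 1 to 5 had 65.7, 67.8, 65.5, 60.1 and 63.1 CPM in hypothyroid tissue, against 7.94, 7.81, 5.98, 7.66 and 10.03 CPM in euthyroid tissue. The lowest hypothyroid library thus lay far above the highest euthyroid one, and the hypothyroid values were close together. The means were 64.5 ± 2.93 and 7.89 ± 1.44 CPM (SD, n = 5 each) in hypothyroid and euthyroid tissue, an 8.16-fold difference with a log2 fold change of 3.03 (SE 0.09). Of all tested genes, 0.53%, Gpc3 included, had a log2 fold change at least as high.

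Gpc4 lies beside Gpc3, with a gap of 107.5 kb, at chrX:52051007-52164923 on the same strand. It encodes a glypican known for effects on Wnt signalling and, when shed by astrocytes, for promoting synapses. In hypothyroid replicates 1 to 5, Gpc4 had 71.2, 95.3, 71.3, 64.7 and 74.3 CPM, against 33.5, 30.2, 30.5, 29.2 and 34.3 CPM in euthyroid replicates 1 to 5. The groups were apart, with hypothyroid replicate 2 above its 4 companions. The means were 75.4 ± 11.7 CPM in hypothyroid and 31.5 ± 2.23 CPM in euthyroid tissue (SD, n = 5 each), a log2 fold change of 1.26 (SE 0.09). This log2 fold change was smaller than that of its neighbour Gpc3 by more than the SE of either.

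Both genes are X-linked and the libraries differed in a Y-linked gene, Ddx3y, which was at 0.0476 CPM in hypothyroid replicate 2, at 0 in hypothyroid replicate 5 and at 0.444 CPM in euthyroid replicate 5, and between 72.3 and 141 CPM in the other 7 libraries. Gpc4 was highest in those same libraries within each group. With Y-linked expression as a covariate, chosen after seeing the data, the log2 fold change was 2.996 (SE 0.0885) for Gpc3 and 1.19 (SE 0.07) for Gpc4.

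Gpc2, known as cerebroglycan and best known from immature neurons, lies at chr5:138273657-138280026 on the minus strand. In hypothyroid replicates 1 to 5, Gpc2 had 91.7, 61.1, 62.0, 74.4 and 77.5 CPM, against 26.1, 29.0, 27.1, 29.3 and 26.2 CPM in euthyroid replicates 1 to 5. The groups were apart, and the hypothyroid libraries were more spread than the euthyroid ones. The means were 73.3 ± 12.6 and 27.6 ± 1.53 CPM (SD, n = 5 each) in hypothyroid and euthyroid tissue, a 2.66-fold difference with a log2 fold change of 1.41 (SE 0.10). An annotated gene on the same strand, Gm43720, covers 55.6% of the exon bases of Gpc2 and was not analysed here, so reads of the pair cannot be told apart. The neuron and Schwann cell markers summed to 135 to 181 CPM in hypothyroid and 129 to 185 CPM in euthyroid libraries, with 2 of the 6 higher, 2 lower, 1 that did not pass and 1 under the count filter, and their part in the Gpc2 difference was not tested.

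Gpc6 and Gpc5 are also neighbours, on chromosome 14 with a gap of 399.7 kb, at chr14:116924920-117979529 and chr14:115092201-116525192, both on the plus strand. Gpc6 is mutated in the human short-limb disorder omodysplasia and its product aids Hedgehog signalling in the growth plate of mice. Replicates 1 to 5 of Gpc6 had 75.8, 84.5, 81.6, 69.7 and 80.3 CPM in hypothyroid tissue, against 42.7, 41.2, 48.3, 48.0 and 48.2 CPM in euthyroid tissue. All hypothyroid values lay above all euthyroid ones. The means were 78.4 ± 5.78 and 45.7 ± 3.46 CPM (SD, n = 5 each) in hypothyroid and euthyroid tissue, a 1.72-fold difference with a log2 fold change of 0.78 (SE 0.06).

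Gpc5 was the rarest of the 10, with 67.8 to 103 estimated counts in hypothyroid and 34.0 to 49.7 in euthyroid libraries, so counting error weighed most on it. In hypothyroid replicates 1 to 5, Gpc5 had 4.12, 3.23, 4.97, 3.46 and 4.29 CPM, against 1.84, 2.53, 2.09, 2.82 and 2.44 CPM in euthyroid replicates 1 to 5. The groups were apart by a narrow margin. The log2 fold change was 0.78 (SE 0.16), close in size to that of Gpc6 but with the widest error of the 10.

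Gpc1 was the most abundant glypican in both groups per length. It is a widely expressed glypican that binds fibroblast growth factors, and it lies at chr1:92831645-92860211 on the plus strand. Replicates 1 to 5 had 188.9, 218, 229, 199 and 206 CPM in hypothyroid tissue, against 219, 207, 204, 205 and 228 CPM in euthyroid tissue. The groups overlapped over nearly their whole range. The means were 208 ± 15.7 and 213 ± 10.7 CPM (SD, n = 5 each) in hypothyroid and euthyroid tissue, and the log2 fold change of -0.03 (SE 0.05) was within its error and turned to 0.23 with library sizes alone, where it passed but the median gene stood at 0.30. Exons of Ankmy1, on the opposite strand, overlap 18.9% of the exon bases of Gpc1, but Ankmy1 itself averaged 0.965 CPM in hypothyroid and 0.671 CPM in euthyroid tissue.

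Among the syndecans, Sdc1 had the largest difference. Sdc1 is the syndecan of epithelia and plasma cells, and it lies at chr12:8771396-8793716 on the plus strand. Replicates 1 to 5 had 38.0, 34.9, 39.6, 33.1 and 39.7 CPM in hypothyroid tissue, against 10.5, 9.27, 9.82, 11.4 and 11.9 CPM in euthyroid tissue. The groups were far apart with little spread within either. The means were 37.1 ± 2.94 and 10.6 ± 1.09 CPM (SD, n = 5 each) in hypothyroid and euthyroid tissue, a 3.50-fold difference with a log2 fold change of 1.81 (SE 0.08).

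Beside Sdc1, the epithelial markers summed to 705 to 826 CPM in hypothyroid and 618 to 676 CPM in euthyroid libraries. Of these 5 markers 4 rose, Cldn6 by 18.7-fold, Krt18 by 2.02-fold, Krt8 by 1.77-fold and Epcam by 1.35-fold. Cdh1, the most abundant of them, did not pass, with 446 CPM in hypothyroid and 443 CPM in euthyroid libraries. The plasma cell marker Jchain averaged 0.633 CPM in hypothyroid and 0.397 CPM in euthyroid tissue and did not pass. The 3.50-fold difference of Sdc1 was larger than those of Krt18, Krt8, Epcam and Cdh1 and smaller than that of Cldn6. The part of these markers in the Sdc1 difference was not tested.

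Sdc4 went the other way. It is the syndecan of focal adhesions, where it acts with integrins and activates protein kinase C alpha, and it lies at chr2:164424247-164443188 on the minus strand. In hypothyroid replicates 1 to 5, Sdc4 had 225, 255, 259, 249 and 241 CPM, against 419.6, 429, 444, 487.5 and 439 CPM in euthyroid replicates 1 to 5. Every hypothyroid library lay well below every euthyroid one. The means were 246 ± 13.4 and 444 ± 26.1 CPM (SD, n = 5 each) in hypothyroid and euthyroid tissue, a log2 fold change of -0.85 (SE 0.05), or 1.81-fold lower in hypothyroid tissue.

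Sdc2, the syndecan of fibroblasts and other mesenchymal cells, lies at chr15:32920723-33034721 on the plus strand. Replicates 1 to 5 had 219.7, 222, 238, 209 and 224 CPM in hypothyroid tissue, against 259.9, 259.9, 251, 258 and 253 CPM in euthyroid tissue. The groups were apart but by little. The log2 fold change was -0.21 (SE 0.04) with TMM factors and 0.06 with library sizes alone, where it did not pass, so its direction depended on the scaling. Relative to the median of all genes it stood at -0.24 with either scaling. A change of scaling shifts all genes by about the same amount, so this value could hardly differ and does not settle the direction.

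Sdc3, found mainly in neural and musculoskeletal tissue, lies at chr4:130792537-130826318 on the plus strand. In hypothyroid replicates 1 to 5, Sdc3 had 290.4, 310.4, 319, 306 and 299 CPM, against 277, 274, 318, 298 and 295 CPM in euthyroid replicates 1 to 5. The groups overlapped. The log2 fold change of 0.06 (SE 0.05) did not pass, and with library sizes alone it was 0.33, which passed but stood only 0.02 above the median of all genes.

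**Figure D2:**
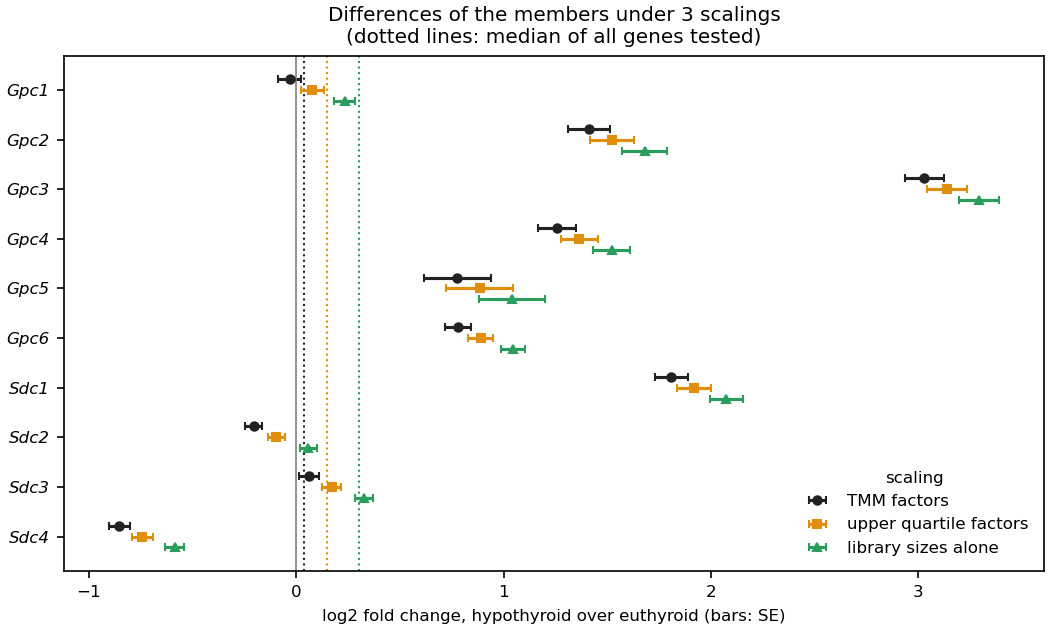
Log2 fold change of hypothyroid over euthyroid tissue for each gene with bars of 1 SE under 3 scalings of the libraries (n = 5 each), with a dotted line for the median of all genes tested under each scaling. Gpc3 stands farthest to the right at 3.03 with TMM factors and Sdc4 farthest to the left at -0.85, while the values of Gpc1 and Sdc2 change sign between TMM factors and library sizes alone.

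Levels were compared between genes in deposited FPKM values, which divide by transcript length and library total. In hypothyroid tissue the order was Sdc4 at 111.7 ± 5.30 FPKM, Sdc2 at 74.6 ± 2.44, Sdc3 at 69.2 ± 1.97, Gpc1 at 68.5 ± 3.98, Gpc3 at 31.8 ± 1.15, Gpc2 at 26.2 ± 4.72, Gpc4 at 25.1 ± 3.75, Sdc1 at 13.7 ± 1.06, Gpc6 at 12.7 ± 0.77 and Gpc5 at 1.45 ± 0.27 FPKM (SD, n = 5). Neighbours in this order overlapped between Sdc3 and Gpc1, Gpc3 and Gpc2, Gpc2 and Gpc4, and Sdc1 and Gpc6. In euthyroid tissue the order was Sdc4 at 167.8 ± 7.63 FPKM, Sdc2 at 71.7 ± 2.28, Gpc1 at 58.4 ± 3.49, Sdc3 at 55.2 ± 2.46, Gpc4 at 8.76 ± 0.95, Gpc2 at 8.33 ± 0.47, Gpc6 at 6.16 ± 0.38, Sdc1 at 3.27 ± 0.29, Gpc3 at 3.24 ± 0.61 and Gpc5 at 0.75 ± 0.09 FPKM (SD, n = 5). Here the overlaps were Gpc1 with Sdc3, Gpc4 with Gpc2, and Sdc1 with Gpc3. Gpc3 thus stood among the leading glypicans in hypothyroid tissue and near the bottom of the order in euthyroid tissue, whereas Sdc4 led in both.

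The make-up of the glypican family differed accordingly. Gpc1 made up 41.3% ± 2.44 of the summed glypican FPKM in hypothyroid libraries and 68.2% ± 0.73 in euthyroid libraries (SD, n = 5 each). Gpc3 made up 19.2% ± 0.37 in hypothyroid and 3.77% ± 0.53 in euthyroid libraries. The shares of Gpc2 were 15.9% and 9.75%, and those of Gpc4 were 15.1% and 10.2%, in hypothyroid and euthyroid libraries. Gpc6 held 7.66% and 7.21%, and Gpc5 held 0.876% and 0.880%, in hypothyroid and euthyroid libraries, so the shares of this pair were alike although both genes had higher levels in hypothyroid tissue.

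Among the syndecans, Sdc4 made up 41.5% ± 1.09 of the summed FPKM in hypothyroid and 56.3% ± 1.16 in euthyroid libraries (SD, n = 5 each). Sdc1 made up 5.10% ± 0.43 in hypothyroid and 1.10% ± 0.10 in euthyroid libraries. Sdc3 made up 25.7% in hypothyroid and 18.5% in euthyroid libraries, and Sdc2 made up 27.7% and 24.1%. Glypican FPKM summed to 165.8 ± 4.46 in hypothyroid and 85.7 ± 4.6 in euthyroid libraries, and syndecan FPKM to 269 ± 7.52 in hypothyroid and 298 ± 7.34 in euthyroid libraries. Of the 2 families together, glypicans therefore held 38.1% ± 0.96 in hypothyroid and 22.3% ± 1.21 in euthyroid libraries. These shares are ratios within a library and do not depend on TMM or library size. The sums do depend on the scaling, since FPKM divide by the library total. In CPM with TMM factors, glypicans summed to 504 ± 21.7 in hypothyroid and 328 ± 13.4 in euthyroid libraries. Syndecans summed to 810 ± 30.3 CPM in hypothyroid and 1003 ± 36.5 CPM in euthyroid libraries.

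**Figure D3:**
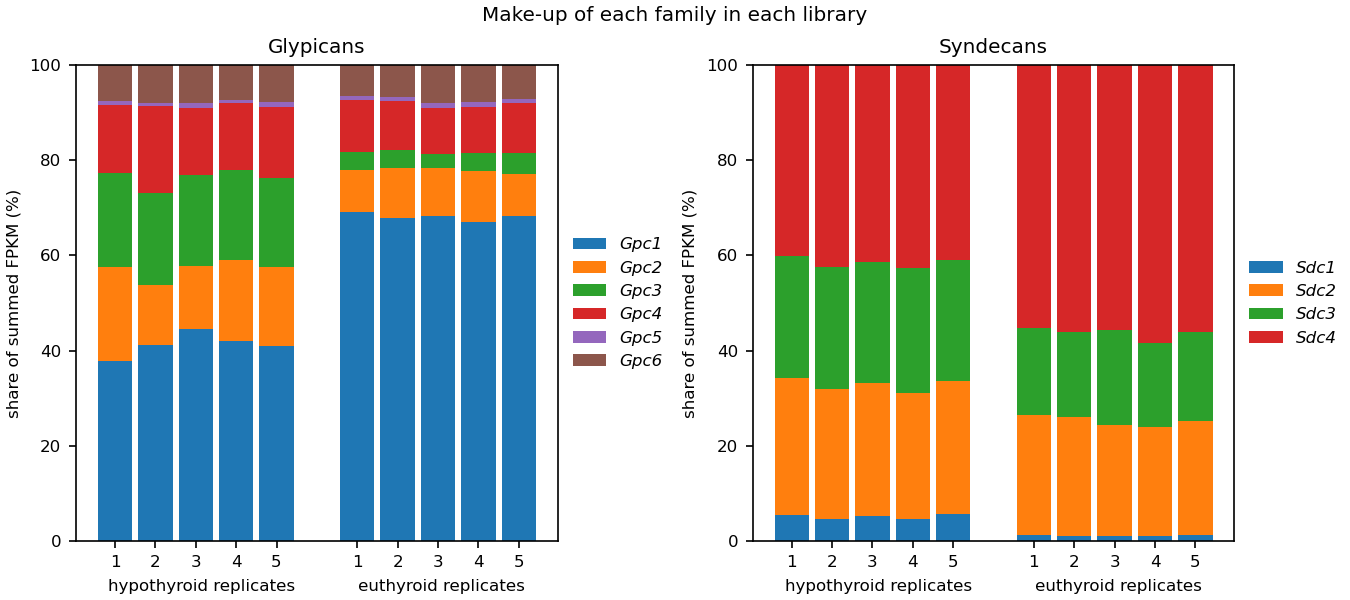
Share of the summed FPKM of each family held by each member (%, stacked to 100), 1 bar per library with the 5 hypothyroid libraries left of the 5 euthyroid libraries, glypicans in the left panel and syndecans in the right. Gpc1 holds 41.3% of glypican FPKM in hypothyroid libraries against 68.2% in euthyroid libraries, and Sdc4 holds 41.5% of syndecan FPKM against 56.3%.

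Counts per FPKM follow the transcript length that the quantification assigned to a gene. Relative to the median of 5797 genes in each library, the ratio of hypothyroid to euthyroid counts per FPKM was 0.994 to 1.013 for 9 of the 10 genes and 1.07 for Gpc5. The assigned length of the 9 genes thus hardly differed between the groups, and that of Gpc5, the rarest, differed by more but with euthyroid libraries spread between 0.944 and 1.18.

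The genes whose log2 CPM followed that of Gpc3 most closely over the 10 libraries were Plppr3 (r = 0.9993), Dact1 (r = 0.9983) and Nell1 (r = 0.9972), out of 11983 genes compared. For Sdc4 they were Ndrg3 (r = 0.9975), Wls (r = 0.9973) and Fbxo2 (r = 0.9972). These correlations are descriptions over points that share the difference between the groups, and no p is given.

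Markers of the dissected tissue differed between the groups as well. The 7 spiral ligament fibrocyte markers summed to 5380 to 6375 CPM in hypothyroid and 14240 to 17680 CPM in euthyroid libraries, with 2 that rose and 5 that fell. Car3, at 3608 CPM in hypothyroid and 5618 CPM in euthyroid tissue, made up most of the hypothyroid sum. Otos averaged 56.05 CPM in hypothyroid and 3906 CPM in euthyroid tissue. The 6 outer sulcus and root cell markers summed to 1734 to 2447 CPM in hypothyroid and 4614 to 5250 CPM in euthyroid libraries, with 5 that fell and none that rose. Chondrocyte markers summed to 18070 to 19720 CPM in hypothyroid and 45110 to 51720 CPM in euthyroid libraries, with 1 of 6 higher and 5 lower. Bone markers summed to 326 to 868 CPM and 1534 to 2366 CPM in hypothyroid and euthyroid libraries, with 7 of 8 lower and Bglap2 at 0 in hypothyroid libraries. The remaining marker, Spp1, did not pass and averaged 479 CPM in hypothyroid and 288.5 CPM in euthyroid tissue. It made up most of the hypothyroid sum, so the sums understate the fall of the others. The sums of these lists were lower in hypothyroid libraries, as Sdc4 was, whereas the 5 macrophage markers, at 223 to 293 CPM in hypothyroid and 141 to 161 CPM in euthyroid libraries, all rose. Of the 5 melanocyte markers 4 rose and 1 fell, with sums of 880 to 1671 CPM in hypothyroid and 554 to 767 CPM in euthyroid libraries. All 4 endothelial markers fell, with sums of 261 to 317 CPM in hypothyroid and 330 to 431 CPM in euthyroid libraries. The part of these markers in the differences of glypicans and syndecans was not tested.

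The enzymes and partners of the core proteins were described in 8 lists with 90 tested genes, of which 29 were higher and 51 lower in hypothyroid tissue and 10 did not pass (edgeR, p adjusted over all tested genes). The lists were chosen with earlier results of these data known. The genes named below include the largest changes of each list, so their adjusted p values are not a test of the lists. Over all tested genes 37.7% were higher and 34.1% lower, the shares against which each list below is to be read. The median log2 fold change over these 90 was -0.29, against 0.04 over all tested genes. With library sizes alone 39 were higher and 35 lower, against a median of 0.30 over all genes.

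**Figure D4:**
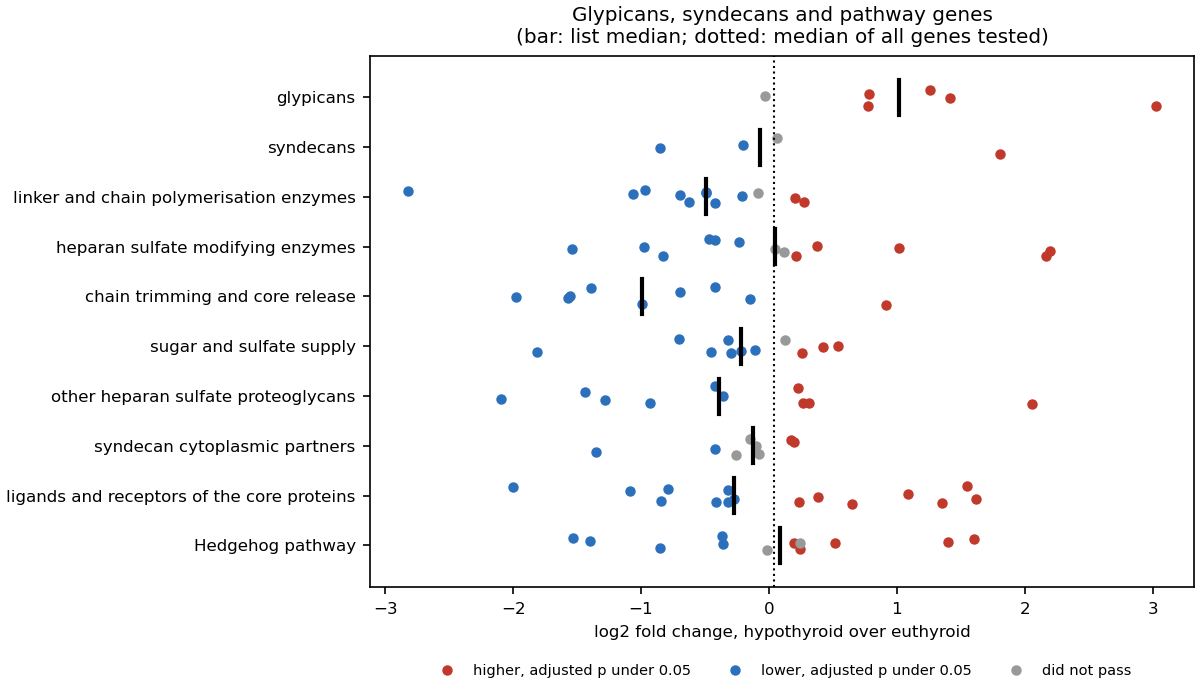
Log2 fold change of hypothyroid over euthyroid tissue with TMM factors (n = 5 each) for each glypican, syndecan and tested pathway gene, 1 point per gene, in red if higher and blue if lower at an edgeR adjusted p under 0.05 and in grey otherwise, with a black bar for the median of each list and a dotted line for the median of all genes tested. The glypican median of 1.02 lies to the right of all other lists, and the median of chain trimming and core release, -0.996, to the left.

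Of the 12 enzymes that build the linker and polymerise the chain, 9 fell, 2 rose and 1 did not pass, with a median log2 fold change of -0.49. Library sizes alone gave 7 lower and 3 higher. Extl1, an exostosin-like transferase, fell to 3.42 ± 0.49 CPM in hypothyroid tissue, against 24.3 ± 2.56 CPM in euthyroid tissue (log2 fold change -2.83, SE 0.11, adjusted p 7.33e-12). Ext1, which forms the chain polymerase with Ext2, fell to 64.9 ± 2.74 CPM in hypothyroid tissue, against 105 ± 8.85 CPM in euthyroid tissue (-0.69, SE 0.06, adjusted p 3.74e-08). Its partner Ext2 rose, with 150.9 ± 8.18 CPM in hypothyroid and 131 ± 4.2 CPM in euthyroid tissue (0.21, SE 0.05, adjusted p 0.000834). The 2 polymerase genes thus moved in opposite directions, Ext1 by more with TMM factors. With library sizes alone Ext1 stood at -0.43 and Ext2 at 0.47, so which moved by more depended on the scaling. Pxylp1, the phosphatase that acts on the linker's xylose, fell by 0.97 on the log2 scale, and B4galt7, which adds the first galactose of the linker, rose by 0.28.

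Of the 13 tested enzymes that modify the chain, 5 rose, 6 fell and 2 did not pass, with a median of 0.05, near that of all tested genes. The balance depended on the scaling, with 7 higher and 4 lower by library sizes alone. Hs6st2, a 6-O-sulfotransferase, rose to 17.9 ± 2.67 CPM in hypothyroid tissue, against 3.98 ± 1.19 CPM in euthyroid tissue (2.17, SE 0.17, adjusted p 7.49e-08). The 3-O-sulfotransferase genes Hs3st6 and Hs3st1 fell by 1.54 and 0.83 on the log2 scale. Ndst1, which starts sulfation by exchanging acetyl for sulfate groups, fell by 0.24 with TMM factors and stood at 0.03 with library sizes alone. The 2-O-sulfotransferase gene Hs2st1 rose by 0.21. Different sulfotransferase genes thus moved in different directions.

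Of the 9 tested genes that trim chains or release core proteins, 8 fell and 1 rose, with a median of -0.996. By library sizes alone 7 were lower and 2 higher. Sulf2, an extracellular sulfatase that removes 6-O-sulfate groups, fell to 41.8 ± 7.01 CPM in hypothyroid tissue, against 164 ± 13.7 CPM in euthyroid tissue (-1.97, SE 0.11, adjusted p 9.06e-09). Its relative Sulf1 fell less, with 224 ± 4.29 CPM in hypothyroid and 299.9 ± 16.2 CPM in euthyroid tissue (-0.42, SE 0.04, adjusted p 5.75e-07). Notum, a secreted esterase that inactivates Wnt proteins and was first described as releasing glypicans, fell to 43.3 ± 3.33 CPM in hypothyroid tissue, against 127 ± 10.9 CPM in euthyroid tissue (-1.55, SE 0.07, adjusted p 2.39e-11). Mmp9, a metalloproteinase able to shed syndecans, fell by 1.57 on the log2 scale (SE 0.32). Hpse, the heparanase that cuts the chains, was the member of this list that rose, with 144.5 ± 43.8 CPM in hypothyroid and 76.8 ± 12.1 CPM in euthyroid tissue (0.91, SE 0.21, adjusted p 0.00379), and its hypothyroid libraries ranged from 104 to 202.5 CPM.

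Of the 11 genes that supply sugars and sulfate, 7 fell, 3 rose and 1 did not pass, and with library sizes alone 3 were lower and 5 higher. Papss2, which makes the sulfate donor, fell to 19.3 ± 2.47 CPM in hypothyroid tissue, against 67.9 ± 4.14 CPM in euthyroid tissue (-1.82, SE 0.08, adjusted p 3.17e-11). Slc35b2, which carries that donor into the Golgi, fell by 0.70 on the log2 scale, and Ugdh, which makes UDP-glucuronate, rose by 0.26.

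Of the 10 other heparan sulfate proteoglycans, 6 fell and 4 rose, and with library sizes alone 5 were lower and 4 higher. Hspg2, the basement membrane proteoglycan perlecan, averaged 317 ± 19.4 CPM in hypothyroid and 270.0 ± 9.34 CPM in euthyroid tissue (0.23, SE 0.05, adjusted p 0.000553). The basement membrane collagen gene Col18a1 rose by 0.31. The testican genes Spock3 and Spock1 moved apart, with log2 fold changes of 2.06 and -2.10, and Cd44, a receptor for hyaluronan that can carry heparan sulfate, fell by 1.44.

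Of the 8 genes whose products bind syndecan tails or act with them, 2 fell, 2 rose and 4 did not pass. With library sizes alone 4 were higher and 2 lower, and with DESeq2 1 was higher and 4 were lower. Prkca, the kinase that Sdc4 activates, fell to 44.6 ± 4.42 CPM in hypothyroid tissue, against 114 ± 12.2 CPM in euthyroid tissue (-1.36, SE 0.08, adjusted p 2.10e-09). Sdcbp, the tail-binding scaffold syntenin, fell by 0.42 on the log2 scale. The tail-binding scaffold gene Cask rose by 0.19. Tiam1 rose by 0.17 with an adjusted p of 0.0306 in edgeR, a call that DESeq2 did not make.

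Of the 15 ligands and receptors of the core proteins, 7 rose and 8 fell, and with library sizes alone 4 were lower. Ptn, the growth factor pleiotrophin that binds Sdc3, was abundant, with 4378 ± 306 CPM in hypothyroid and 5300.0 ± 241 CPM in euthyroid tissue (-0.28, SE 0.06, adjusted p 0.000521), and stood at -0.01 with library sizes alone. The chemokine gene Cxcl12 rose to 223 ± 23.2 CPM in hypothyroid tissue, against 72.6 ± 7.65 CPM in euthyroid tissue (1.62, SE 0.08, adjusted p 4.02e-10). The growth factor gene Hgf rose by 1.55 on the log2 scale, whereas Hbegf and Fgf1 fell by 1.09 and 0.84.

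Hedgehog genes were listed because Gpc3 and Gpc6 act on that pathway. Of 12 tested, 5 rose, 5 fell and 2 did not pass, with a median of 0.09, and with library sizes alone 3 were lower. The pathway's own targets did not move together. Gli1, a transcription factor that Hedgehog signalling induces, fell to 3.87 ± 1.6 CPM in hypothyroid tissue, against 11.2 ± 1.23 CPM in euthyroid tissue (-1.53, SE 0.21, adjusted p 2.50e-05). Hhip, an inhibitor that binds the ligands and is also induced by the pathway, rose to 7.88 ± 2.05 CPM in hypothyroid tissue, against 2.58 ± 0.72 CPM in euthyroid tissue (1.6, SE 0.20, adjusted p 5.61e-06). The receptor gene Ptch1 fell by 0.37 with TMM factors (adjusted p 0.00107) and did not pass with library sizes alone, at -0.11. Gas1, a co-receptor, rose to 624 ± 63.9 CPM in hypothyroid tissue, against 237 ± 30.7 CPM in euthyroid tissue (1.40, SE 0.09, adjusted p 1.02e-08), and Gli2, another transcription factor of the pathway, fell by 0.85 on the log2 scale.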

How the data were processed

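Polyadenylated RNA was sequenced as single-end reads of 50 bases, per the labels' protocols. HISAT2 2.0.4, Bowtie2 2.2.5, RSEM 1.2.12 and build GRCm38.p6 are named per the submitters' processing notes, with no roles given. Whether libraries kept strand was not stated. The authors deposited expected counts (RSEM estimates), FPKM and TPM values per gene and library, per the file headers. The 18 columns of scaled reads and group means were not used here. Expected counts were rounded, filtered with filterByExpr (minimum count 10, leaving 14862 of 18725 genes), scaled with TMM factors and tested two-sided with edgeR 4.0.16 (quasi-likelihood, robust, group as the only term), with Benjamini-Hochberg adjustment over all tested genes and a threshold of 0.05. CPM use the TMM-adjusted library size. SE is the absolute log2 fold change over the square root of F. Library totals ran from 19298145 to 20063961, so Gpc5 alone fell under 100 counts in most libraries. Alternatives used DESeq2 1.42.0 on the rounded counts and limma 3.58.1 (R 4.3.3) on the deposited FPKM and TPM values. For limma, pseudocounts of 1 and 0.1 were added, which understate changes of low genes. Further edgeR fits used library sizes alone, upper quartile factors, no count filter or a minimum count of 50. Others added a replicate block or Y-linked expression as a covariate, or left out 1 library at a time. The procedure was tested on simulated data. Within groups, 20 pairs of libraries had a mean chi-square per gene of 5.41 to 15.8, so none was a duplicate. Markers, lists and members were chosen with earlier results of these data known. Named genes were all members, the 2 largest changes in each direction of each list at a mean of at least 5 CPM, and 10 genes named in any case: Ext1, Ndst1, Sulf1, Sulf2, Hpse, Notum, Hspg2, Sdcbp, Ptn and Ptch1. Sequences are from RefSeq promoter entries on GRCm38.p6, and exon overlaps from GENCODE annotation of that build. Litter, animals per library and serum hormone were not analysed here.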

Additional observations from a re-analysis of the deposited data

Results flagged for a closer look

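In groups of 5 libraries, a value was singled out where its gap to the nearest other library was above 0.71 of the group's range (Dixon's test). Over 94 groups of values, 7 met this, where chance gives about 5 in 100. No glypican or syndecan was among them. In hypothyroid tissue, B4galt7 had 29.3 CPM in replicate 1, against 23.8 to 25.2 CPM in the others. Hs3st6 had 8.45 CPM in replicate 4, against 4.29 to 5.23 CPM in the others. Sulf1 had 231 CPM in replicate 5, against 221 to 223 CPM in the others. Ugdh had 96.4 CPM in replicate 3, against 84.98 to 88.2 CPM in the others. Gli2 had 30.5 CPM in replicate 2, against 18.0 to 21.2 CPM in the others. In euthyroid tissue, Cd44 had 90.9 CPM in replicate 3, against 114 to 121 CPM in the others, and Ptch1 had 26.6 CPM in replicate 1, against 20.9 to 22.1 CPM in the others.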

How the results depend on the processing

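Gpc2, Gpc3, Gpc4, Gpc5, Gpc6 and Sdc1 kept a positive and Sdc4 a negative log2 fold change past the threshold in all 21 alternatives, with ranges of 2.93 to 3.29 for Gpc3 and -0.88 to -0.58 for Sdc4. The alternatives reuse the libraries in view when the genes were chosen. They show how far the values depend on the processing and are no further test of the differences. Other counts moved with the scaling or, for limma, with unit, test and scaling together. Genes called higher numbered 8650 with library sizes alone and 8930 by limma on log2(FPKM + 1) without a filter. Genes called lower numbered 2928 with library sizes alone, and by limma 2682 with log2(FPKM + 1), 2681 with log2(FPKM + 0.1), 3123 with log2(TPM + 1) and 3205 with log2(FPKM + 1) unfiltered. In each of these 5 settings 1 member, Sdc4, was called lower. Pathway genes called lower numbered 30 with FPKM at either pseudocount and 33 with TPM. With library sizes alone the log2 fold change turned to 0.23 for Gpc1, 0.0587 for Sdc2 and 0.0293 for Ndst1. With FPKM it was 0.226 for Gpc1, 0.0577 for Sdc2 and 0.0260 for Ndst1 at a pseudocount of 1, filtered or not, and 0.229, 0.0584 and 0.0269 at 0.1. With TPM it was 0.189 for Gpc1 and 0.0194 for Sdc2. Sdc3 passed in them and with upper quartile factors. The replicate block gave 10392 genes called, 5453 higher and 4939 lower, with 6 members higher and 2 lower and 28 pathway genes higher and 50 lower. The replicate numbers did not pair the libraries, since correlations of same-numbered deviations ran from -0.11 to 0.20 and only numbers 1 and 5 correlated best with themselves. Without 1 library at a time, 10294 to 10663 genes were called and every member kept its side of the threshold. The call of Tiam1 was lost in 6 of these, with DESeq2 and with Y-linked expression as a covariate, which was added after seeing the data. Gpc5, the shallowest member, ranged from 0.69 to 0.84 without 1 library and, over all alternatives, from 0.48 with log2(FPKM + 1) to 1.04 with library sizes alone.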
